A study of Mus musculus with 2 samples.

Results

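The subject here is the set of chromatin regions at the ends of protein-coding genes that were listed in alveolar macrophages treated with interleukin-4 (IL-4) and had no counterpart in untreated cells. A region was chosen by overlap: it was on an autosome, shared no base with any region of the untreated list, and touched a window of 1 kb on each side of either end of a RefSeq protein-coding gene on mm10. The rule selected 7855 of the 225427 autosomal regions of the IL-4 list, or 3.48%. An anti-PHLPP1 antibody was used for CUT&Tag on alveolar macrophages that had been washed from the lungs of wild-type mice, and the study has 2 libraries. The untreated group held 1 library and the group given IL-4 at 20 ng/ml for 4 h held 1 library. The labels give no age, sex or number of mice and do not say whether cells were pooled. No library with a control antibody was analysed here. With 1 library per group there was no replicate check, and no p-value compares the groups.

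PHLPP1 is a phosphatase with a PH domain and leucine-rich repeats that removes phosphate from the kinase AKT and from other kinases, and so opposes the PI3K pathway. In CUT&Tag an antibody bound inside permeabilised cells brings a transposase to the DNA beside its target, and the tagged fragments pile up where the target sat or where the chromatin was easily cut. IL-4 binds its receptor on macrophages, activates the transcription factor STAT6 and turns on the genes of alternative activation, among them Arg1, Retnla and the lectins Clec7a, Clec10a and Mgl2. Alveolar macrophages live in the airspaces of the lung, where they clear surfactant and particles. A gene's start carries its promoter, and its finish carries the site where the transcript is cut and polyadenylated.

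The promoters of 10 genes newly marked with IL-4 are shown first because they cover the range of sequence under the regions, from CpG-rich to CpG-free. Each line gives the 250 bases before the gene's start on the gene's own strand, from the RefSeq promoter table (GRCm38.p6, which is mm10), and every CG is in capitals. The IL-4 region covered at least 200 bases of the 300-base promoter window in each. Rbak, Tagap, Eif3l and Krr1 have the highest folds of the promoters covered in this way; the other 6 were chosen after their values were seen.
Rbak promoter, chr5:143180776-143181025, minus strand: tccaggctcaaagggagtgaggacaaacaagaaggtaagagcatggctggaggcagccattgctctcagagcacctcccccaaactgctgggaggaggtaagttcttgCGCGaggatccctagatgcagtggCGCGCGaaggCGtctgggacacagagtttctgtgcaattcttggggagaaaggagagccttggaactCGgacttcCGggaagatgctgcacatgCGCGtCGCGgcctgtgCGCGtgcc
Tagap promoter, chr17:7925750-7925999, plus strand: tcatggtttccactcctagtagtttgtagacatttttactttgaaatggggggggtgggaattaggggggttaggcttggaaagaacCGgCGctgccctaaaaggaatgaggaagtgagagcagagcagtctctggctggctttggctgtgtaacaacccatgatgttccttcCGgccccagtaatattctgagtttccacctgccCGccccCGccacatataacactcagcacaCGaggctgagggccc
Eif3l promoter, chr15:79074973-79075222, plus strand: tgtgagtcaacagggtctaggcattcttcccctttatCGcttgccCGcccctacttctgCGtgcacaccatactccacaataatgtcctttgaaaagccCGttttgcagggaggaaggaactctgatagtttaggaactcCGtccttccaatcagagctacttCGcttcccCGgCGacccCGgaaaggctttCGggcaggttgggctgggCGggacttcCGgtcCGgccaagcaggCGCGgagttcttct
Krr1 promoter, chr10:111972445-111972694, plus strand: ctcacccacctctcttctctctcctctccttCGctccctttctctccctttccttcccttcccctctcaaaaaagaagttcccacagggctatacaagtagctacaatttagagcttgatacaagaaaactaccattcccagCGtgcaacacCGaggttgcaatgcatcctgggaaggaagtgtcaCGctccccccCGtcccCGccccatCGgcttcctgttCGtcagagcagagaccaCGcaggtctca
Clec7a promoter, chr6:129472780-129473029, minus strand: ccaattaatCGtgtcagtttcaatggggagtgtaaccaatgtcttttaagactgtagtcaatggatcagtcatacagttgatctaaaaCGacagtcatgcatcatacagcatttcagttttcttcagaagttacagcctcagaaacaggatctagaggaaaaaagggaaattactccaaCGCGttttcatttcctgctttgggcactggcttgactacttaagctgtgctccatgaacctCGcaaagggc
Irf8 promoter, chr8:120736108-120736357, plus strand: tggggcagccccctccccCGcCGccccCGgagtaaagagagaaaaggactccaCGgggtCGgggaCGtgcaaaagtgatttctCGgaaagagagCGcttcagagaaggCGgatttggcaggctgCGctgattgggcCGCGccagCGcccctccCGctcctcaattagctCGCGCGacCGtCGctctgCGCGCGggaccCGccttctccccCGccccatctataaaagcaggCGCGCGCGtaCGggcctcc
Cxcl10 promoter, chr5:92348890-92349139, minus strand: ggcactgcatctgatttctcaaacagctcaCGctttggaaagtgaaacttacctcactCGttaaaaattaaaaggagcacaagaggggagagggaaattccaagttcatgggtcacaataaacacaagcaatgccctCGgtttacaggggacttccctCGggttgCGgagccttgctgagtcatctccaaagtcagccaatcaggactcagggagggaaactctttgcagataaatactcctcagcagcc
Fcgr1 promoter, chr3:96293970-96294219, minus strand: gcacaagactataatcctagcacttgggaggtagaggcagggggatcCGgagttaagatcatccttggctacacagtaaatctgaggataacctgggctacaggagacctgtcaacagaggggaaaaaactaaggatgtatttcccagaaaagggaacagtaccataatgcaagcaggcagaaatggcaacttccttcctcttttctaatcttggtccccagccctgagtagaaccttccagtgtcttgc
H2-Eb1 promoter, chr17:34305617-34305866, plus strand: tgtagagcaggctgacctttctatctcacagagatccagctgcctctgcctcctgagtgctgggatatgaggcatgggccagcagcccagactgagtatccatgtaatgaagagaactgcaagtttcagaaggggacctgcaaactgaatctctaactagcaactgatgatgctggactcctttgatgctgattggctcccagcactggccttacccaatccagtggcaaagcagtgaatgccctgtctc
Pik3cg promoter, chr12:32208471-32208720, minus strand: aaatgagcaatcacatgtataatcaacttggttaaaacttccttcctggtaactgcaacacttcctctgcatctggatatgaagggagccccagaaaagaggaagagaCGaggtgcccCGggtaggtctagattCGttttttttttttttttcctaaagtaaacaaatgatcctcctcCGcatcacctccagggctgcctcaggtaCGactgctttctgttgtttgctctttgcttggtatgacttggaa
The 250 bases of Irf8 hold 29 CG pairs, those of Eif3l 15 and those of Rbak 14. Krr1 holds 9 and Tagap 6. Clec7a, Cxcl10 and Pik3cg hold 5 each, Fcgr1 holds 1 and H2-Eb1 holds 0.

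Most of these regions were weak. Fold enrichment is the authors' ratio of the fragments at a region's summit to the local background of the same library. The ratio was taken to have a small constant added to both. Fold ran from 1.48 to 5.45 with a median of 2.13. Gene-end regions of the IL-4 list that did overlap an untreated region had a median fold of 3.58. The median summit held 39 fragments, against 67 for the overlapping gene-end regions, and the median width was 310 bp against 578 bp. Regions with a fold of 3 or more numbered 479, or 6.10%, and regions with a −log10 q of 5 or more numbered 1900, or 24.2%. The fold and the rule come from the same lists, so these values describe the set and test nothing.

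Absence from the untreated list does not mean absence of signal. At the constant background of each library, 13.9 fragments untreated and 15.9 with IL-4, a summit needed 23 fragments to enter the untreated list and 26 to enter the IL-4 list. Of the 20027 gene-end regions in the IL-4 list, 39.2% overlapped no untreated region. That share was 78.9% in the lowest bin of fold, 62.9% between 2 and 2.5, 15.4% between 3 and 4 and 1.85% between 4 and 5. At a fold of 5 or more it was 1 of 3285 regions, the region shared by the starts of Rbak and Spdye4b. Away from gene ends the share was 22.3% between folds of 3 and 4, higher than at gene ends. In the opposite direction, 1858 of 14155 untreated gene-end regions, or 13.1%, overlapped no IL-4 region, and 1 of these had a fold of 3 or more. The untreated list was the shorter, with 165089 autosomal regions against 225427 in the IL-4 list, so the shares in the 2 directions come from lists of unequal length.

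**Figure D1:**
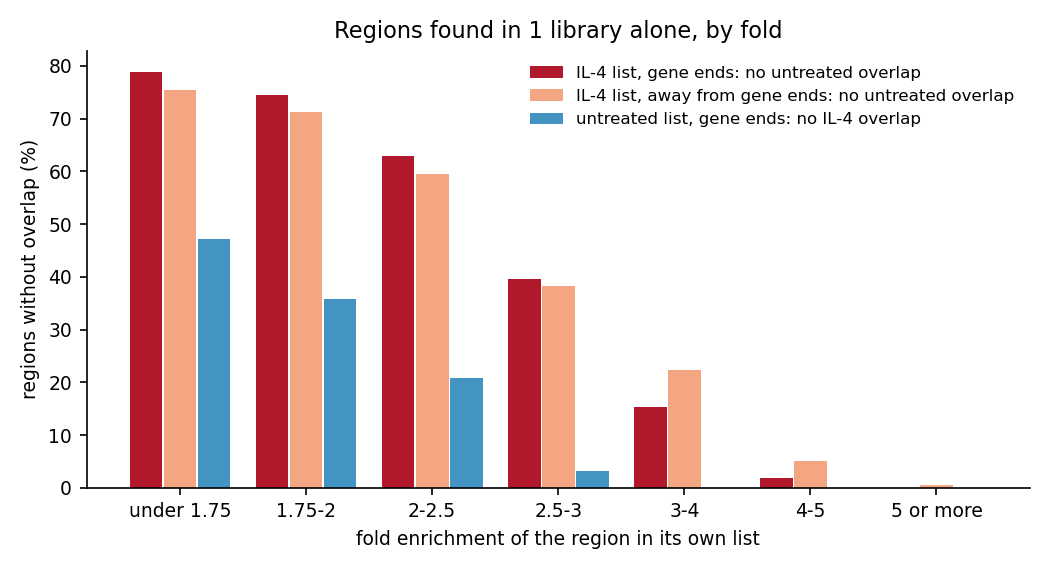
Share of regions (%) that overlap no region of the other library, by fold enrichment in their own list, for IL-4 regions at gene ends, IL-4 regions away from gene ends and untreated regions at gene ends. Among IL-4 regions at gene ends the share goes from 78.9% in the lowest bin to 0.0304% at 5 or more, and at gene ends the untreated bar is lower than the IL-4 bar in each bin.

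The values at the edge of the rule were close on both sides. A region at Tox3, a high-mobility-group transcription factor gene, had a fold of 1.96 and abutted an untreated region of fold 1.88 without sharing a base. A region at the finish of Oas3, an antiviral oligoadenylate synthetase gene, had a fold of 1.74 and abutted an untreated region of fold 2.41. Just outside the rule, a region at Ccdc183 and Rabl6 with a fold of 2.55 shared 1 bp with an untreated region, and a region at Egfr with a fold of 2.02 shared 2 bp. The 125 regions within 100 bp of an untreated region had a median fold of 2.02, and the 198 excluded for an overlap of under 100 bp had a median fold of 2.01.

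The nearest untreated region lay a median of 3.21 kb away, counted from edge to edge, with quartiles of 0.947 and 8.17 kb. It lay within 1 kb for 25.8% of the regions, within 5 kb for 61.6% and at 50 kb or more for 78 regions. The nearest untreated region stood within 1 kb of an end of the same gene in 2343 cases, with a median gap of 0.593 kb. In 2163 cases it stood inside the same gene away from its ends, with a median gap of 3.41 kb. In the other 3349 cases it lay elsewhere, with a median gap of 6.72 kb. The nearest untreated region had a higher fold in its own list than the IL-4 region had in its list in 60.9% of cases. Regions with a fold of 3 or more lay farther from untreated regions, with a median gap of 5.83 kb. Regions found only with IL-4 away from gene ends had median gaps of 3.41 kb inside genes and 3.59 kb outside genes, close to the gene-end value, but fewer of them, 19.2% and 18.9%, had an untreated region within 1 kb.

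**Figure D2:**
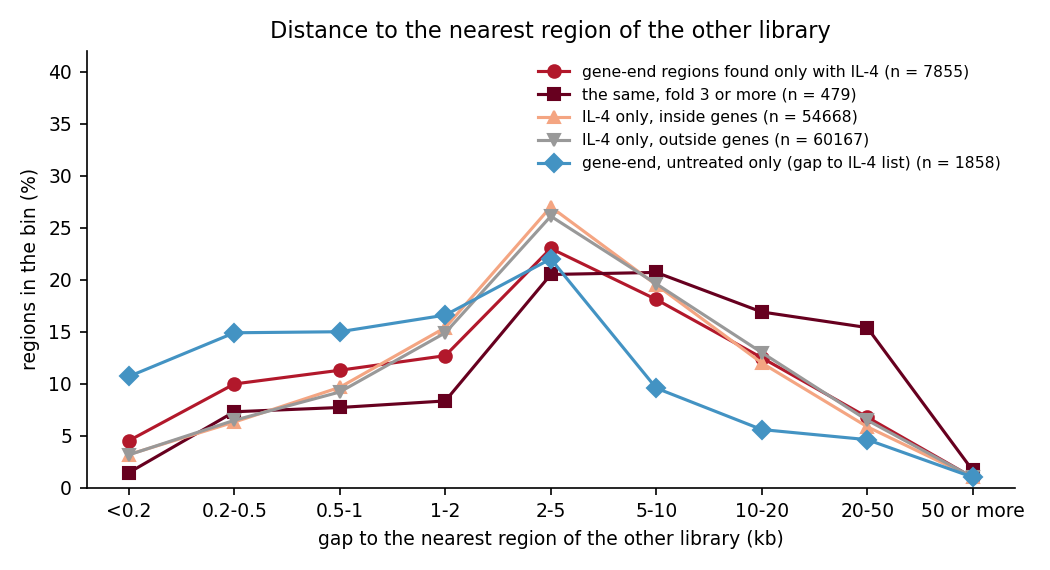
Share of regions (%) by the gap in kb to the nearest region of the other library, for gene-end regions found only with IL-4, the strongest of these, regions found only with IL-4 inside and outside genes, and gene-end regions found only untreated. The gene-end set peaks between 2 and 5 kb at 23%, and the set with a fold of 3 or more has 15.4% of its regions between 20 and 50 kb.

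The largest gap stood at the start of Plcxd3, a phospholipase C-like gene, where the nearest untreated region was 189.8 kb away and the fold was 2.02. B3gnt5, which makes the core of lacto-series glycolipids, had a gap of 159.0 kb and a fold of 2.37. Hoxc10 and Hoxc9, homeobox genes that set position along the body axis, followed with 120.4 and 111.1 kb and folds of 2.55 and 2.19. The start of Zfp955a, a zinc finger gene, had a gap of 103.3 kb and a fold of 3.02, the highest fold among the 10 most isolated regions. Over the 17 Hox genes with such a region, of 39, the median gap was 26.1 kb, against 3.08 kb over all genes with a region.

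The reference gives a direction of transcription for part of the genes, and for none on chromosome 18. That chromosome is therefore absent from the shares at starts and finishes. In all, 5716 regions stood at a start alone or a finish alone. Of these, 55.9% stood at a start, compared with 82.7% of gene-end regions that overlapped an untreated region. The share at starts went with fold: 47.2% below a fold of 2, 56.8% between 2 and 2.5, 67.5% between 2.5 and 3, 72.4% between 3 and 4, and 77.8%, or 21 of 27, at 4 or more. Regions that overlapped an untreated region showed the same order at higher levels, from 56.6% to 95.9%. At starts, 37.8% of 3793 region-gene pairs had their summit within 250 bp of the start, against 64.7% of 9207 pairs for overlapping regions. The highest bin of the regions found only with IL-4 was the 100 bp after the start, with 11.9% of pairs, and that of the overlapping regions was the 100 bp before it, with 22.5%. At finishes, 1.77% of pairs had their summit in the last 100 bp of the gene, fewer than in the 100-bp bins farther away.

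**Figure D3:**
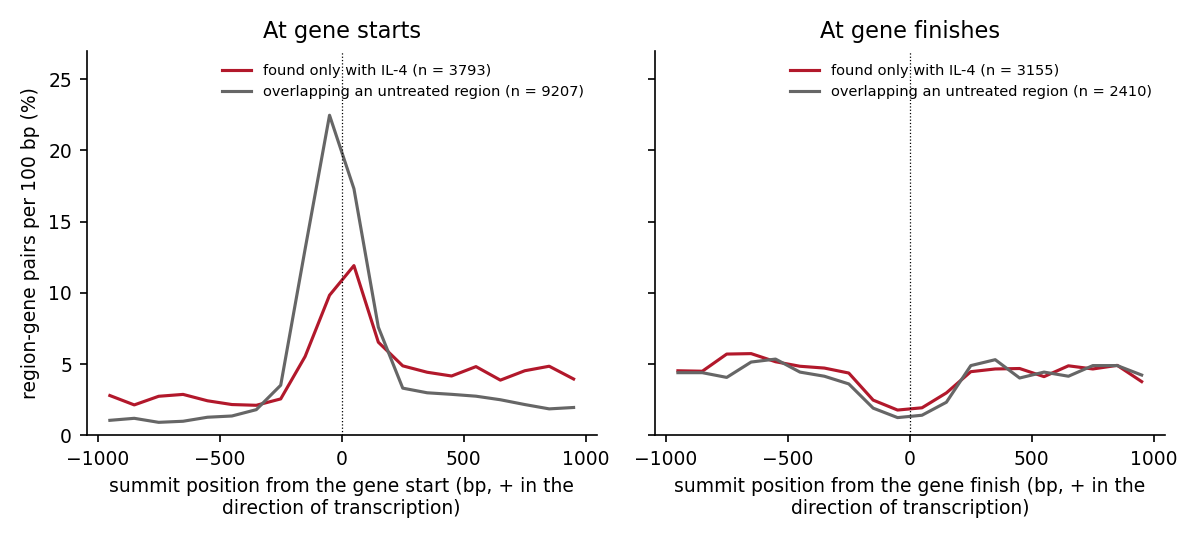
Position of region summits in bp from the gene start (left) and the gene finish (right), positive in the direction of transcription, as the share of region-gene pairs (%) per 100 bp, for regions found only with IL-4 and for IL-4 regions that overlap an untreated region. Both sets peak at the start, at 11.9% and 22.5%, and both dip at the finish.

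In all, 6866 of 20665 protein-coding genes on autosomes, or 33.2%, carried such a region, and 1813, or 8.77%, carried a gene-end region found only untreated. These 2 shares also come from lists of unequal length. The 33.2% is the level against which each gene group is set. For 3316 genes, 16.0% of all, there was no untreated region within 1 kb of either end; these are called newly marked, and they made up 40.2% of the 8240 genes without an untreated end region. The other 3550 genes already had an untreated region at an end and showed a further one with IL-4. Of the newly marked genes, 1564 had no untreated region anywhere along their length or within 1 kb of it. Most genes, 5382, carried 1 such region, 1257 carried 2, 212 carried 3 and 15 carried 4. Genes with 4 included Zbtb4, a zinc finger gene that binds methylated DNA, with folds from 2.25 to 3.38 at its start and finish. A region stood at the ends of 2 genes in 687 cases and of 3 or more genes in 14, and 1 region of fold 1.85 touched 25 genes because the protocadherin-gamma genes share a finish.

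The newly marked share differed between chromosomes, from 12.7% of genes on chromosome 3 to 22.7% on chromosome 11. It was 20.7% on chromosome 17, 20.5% on chromosome 15 and 18.3% on chromosome 19. The IL-4 list as a whole held 2.11 times as many regions as the untreated list on chromosome 19, 1.85 times on chromosome 11, 1.53 times on chromosome 17 and 1.47 times on chromosome 15, against 1.1 times on chromosome 3. The order was not the same for both measures: chromosome 19 had the highest ratio but not the highest newly marked share, and chromosome 9 had a ratio of 1.51 with a share of 15.3%, below the 16.0% of all genes. The part of region numbers in the newly marked share was not tested.

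The 20 regions of highest fold stood at 23 genes, of which 20 were newly marked. They lay at a start for 13 of these genes and at a finish for 3, and the direction of the other 7 is not known. The region at chr5:143180380-143181038 reached 91 fragments over a background of 15.9, a fold of 5.45, and had its summit 122 bp from the start of Rbak, a zinc finger repressor that binds the retinoblastoma protein, and 120 bp from that of Spdye4b. The nearest untreated region was 21.7 kb away with a fold of 2.35. The start of Tagap, a GTPase-activating gene of immune cells, reached 82 fragments and a fold of 4.92 at chr17:7925462-7926215, 5.90 kb from an untreated region of fold 2.01. Scrn2, a secernin gene, had a fold of 4.88 and Slc43a2, which carries large neutral amino acids, a fold of 4.62. Of genes in translation and ribosome assembly, Eif3l, a subunit of a translation initiation factor, had 75 fragments and a fold of 4.51, Krr1, which helps build the small ribosomal subunit, had 74 and 4.45, and Eif2b3 had a fold of 4.21. Cyc1, cytochrome c1 of respiratory complex III, and Phb, a mitochondrial inner-membrane scaffold, had folds of 4.39 and 4.27. The splicing genes Hnrnpm and Sf3a3 each had 72 fragments and a fold of 4.33, 33.1 and 4.91 kb from the nearest untreated region. Ino80e, a subunit of a chromatin remodeller, shared a region of fold 4.21 with Hirip3. The 3 regions at finishes were those of Fam193a, Zbtb8os and Fmod, with folds of 4.62, 4.21 and 4.17; Fam193a and Zbtb8os already had untreated end regions.

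Genes of the IL-4 response carried these regions in 19 of 40 cases, or 47.5%, against 33.2% of all genes. Of the 21 that lacked an untreated end region, 11, or 52.4%, were newly marked, against 40.2% over all genes. Newly marked genes were 27.5% of the group, against 16.0% of all genes. The list was drawn up with earlier results of these data known, so the count describes and does not support. A fold of 3 or more was found at 5 of the genes, Clec7a, Fn1, Clec10a, Mgl2 and Tfec, of which Clec7a, Clec10a and Mgl2 encode lectins. The start of Clec7a, the beta-glucan receptor dectin-1 whose promoter is printed above, had 67 fragments, a fold of 4.03 and a −log10 q of 18.6 at chr6:129472584-129472987, with the summit 11 bp from the start. Its nearest untreated region was 34.2 kb away with a fold of 1.94. Clec10a and Mgl2, the paired galactose-type lectins of alternatively activated macrophages, had 58 and 50 fragments, folds of 3.38 and 3.02, and gaps of 5.86 and 29.9 kb. Fn1, the matrix protein fibronectin, had 60 fragments and a fold of 3.62, with 9.13 kb to the nearest untreated region. Tfec, a macrophage transcription factor tied with Mgl2, had 50 fragments and a fold of 3.02 at its start. All 5 of these genes were newly marked.

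Arg1, the arginase that diverts arginine from nitric oxide, had a region of 53 fragments and a fold of 2.90 whose summit lay 853 bp from an end, 1.63 kb from an untreated region of fold 4.16. Retnla, the secreted resistin-like protein, had 32 fragments and a fold of 1.96 near its finish, 25.1 kb from an untreated region. Ccl24, an eosinophil-attracting chemokine, also had 32 fragments and a fold of 1.96. At Stat6, the factor that IL-4 activates, the region near the finish had a fold of 1.92, 0.445 kb from an untreated region and shared with the neighbouring gene Nab2, beside a Stat6 end region that was present untreated with a fold of 2.88. End regions of any kind stood at 19 of the 40 genes of the list untreated and at 30 with IL-4, or 47.5% and 75%. Over all genes these shares were 60.1% and 73.3%. Chil3, Mrc1, Il4ra, Irf4 and Klf4 of the same list carried no region found only with IL-4, which does not mean that they carried no region. Tfec, Stat6, Ccl24 and those 5 were chosen for mention after their values were seen.

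Alveolar macrophage genes were mostly marked in both libraries: 26 of 32, or 81.2%, had an end region untreated and 30, or 93.8%, with IL-4. Over all genes these shares were 60.1% and 73.3%. A region found only with IL-4 stood at 11 of the 32, or 34.4%, close to the 33.2% of all genes. Ear6, an eosinophil-type ribonuclease gene, had a fold of 3.29, 1.3 kb from an untreated region of fold 2.95, and Ctsk, the protease cathepsin K, had a fold of 2.66 and was newly marked. Broader macrophage genes carried such regions in 17 of 34 cases, or 50%. Newly marked were 6 of the 7 without an untreated end region, against 40.2% over all genes, and 17.6% of the group, against 16.0%. Among them the start of Irf8, an interferon regulatory factor needed for the monocyte lineage, had 67 fragments and a fold of 4.03, with a second region of fold 2.19 past the finish. Fcgr1, the high-affinity Fc gamma receptor, had 50 fragments and a fold of 3.02, and Mpeg1, the pore-forming perforin-2, had a fold of 3.29 beside an untreated region of fold 2.41.

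Genes that define other cells also stood above the 33.2% of all genes, neuron genes by little. The counts were 21 of 33 T and B lymphocyte genes, or 63.6%, 16 of 32 lung epithelium genes, or 50%, 11 of 25 granulocyte genes, or 44.0%, 14 of 33 fibroblast and endothelial genes, or 42.4%, and 12 of 33 neuron genes, or 36.4%. In the same order, the groups stayed above all genes in 9, 7, 8, 8 and 7 of 10 alternative settings. The strongest were Ebf1 and Blnk of B cells, with folds of 3.26 and 3.23, Csf3r of neutrophils, with 3.14, and Tubb3 of neurons, with 3.26. End regions of any kind stood at 14 of the 33 lymphocyte genes untreated and 27 with IL-4, or 42.4% and 81.8%. They stood at 17 and 25 of the 32 epithelium genes, or 53.1% and 78.1%, and at 7 and 14 of the 25 granulocyte genes, or 28% and 56%. Over all genes the shares were 60.1% untreated and 73.3% with IL-4. Lung epithelium genes held none with a fold of 3 or more, and Scgb1a1 of club cells was highest with 2.49. Defining markers without a region found only with IL-4 included Ms4a1, Cd4 and Cd8a of lymphocytes and S100a8 and S100a9 of neutrophils, which were picked for mention after the values were seen. Such genes can still carry a region that overlaps an untreated one. A region is not a transcript, so these counts do not measure which cells were present, and the part of other cells in the result was not tested.

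Of 10 groups of immune genes, 8 stood above the 33.2% of all genes; chemokine genes, 1 of the 8, did so by less than 1 gene and in only 4 of 10 alternative settings. Interferon genes carried such regions in 18 of 45 cases, or 40%. Of the 14 that lacked an untreated end region, 10 were newly marked, against 40.2% over all genes. Newly marked genes were 22.2% of this group, against 16.0% of all genes. The start of Cxcl10, a chemokine induced by interferon-gamma, had 66 fragments, a fold of 3.83 and a −log10 q of 17.1, 4.48 kb from an untreated region. Bst2, the tetherin that holds virus particles at the cell surface, had 61 fragments and a fold of 3.68. Nos2, the inducible nitric oxide synthase of classical activation, had 56 fragments and a fold of 2.98, and Ifit1, an antiviral RNA-binding protein, had 49 and 2.96. Genes of both activation states were among those newly marked: Arg1 and Clec10a of the IL-4 program and Nos2 and Cxcl10 of the interferon program.

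Interleukin and receptor genes carried such regions in 37 of 78 cases, or 47.4%, and 24, or 30.8%, were newly marked, against 16.0% of all genes. Il17ra had the highest fold, 3.72, with the nearest untreated region 3.25 kb away. The end with this region had no untreated region within 1 kb, but the other end of Il17ra had 1 of fold 3.48. The start of Il1rl1, the receptor for interleukin-33, had 57 fragments and a fold of 3.44, 7.45 kb from an untreated region. Complement and Fc receptor genes had them in 14 of 26 cases, or 53.8%. Newly marked were 8 of 10 unmarked genes, against 40.2% over all genes, and 30.8% of the group, against 16.0%. A region found only untreated stood at 0 of 26, against 8.77% of all genes. The highest folds of the group were 3.44 at Cfb, complement factor B, and 3.02 at Fcgr1. C5ar1 and C3ar1, receptors for the complement fragments C5a and C3a, followed with 2.67 and 2.55. C-type lectin and Siglec genes had 18 of 46, or 39.1%, Toll-like receptor genes 6 of 9, TNF superfamily genes 12 of 31, or 38.7%, and chemokine genes 21 of 61, or 34.4%. With a −log10 q of 5 or more the chemokine share was 8.20%, below the 9.73% of all genes. NF-kB and inflammatory genes were below all genes, with 11 of 43, or 25.6%; 37 of the 43 already had an untreated end region. NOD-like receptor genes had 3 of 28, or 10.7%, and none reached a −log10 q of 5.

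MHC genes carried such regions in 16 of 31 cases, or 51.6%, and 8, or 25.8%, were newly marked, against 16.0% of all genes. The finish of H2-Eb2, a class II gene, had 64 fragments and the highest fold of the group, 3.85. The class I-like gene H2-T24 followed with 52 fragments and a fold of 3.14. The class II genes H2-Aa and H2-Eb1, which present peptides to helper T cells, had 51 and 50 fragments at their starts and folds of 3.08 and 3.02. All 4 were newly marked, with gaps of 6.37, 10.6, 5.49 and 6.31 kb to untreated regions.

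Of 48 genes in the pathway that PHLPP1 acts on, from PI3K through AKT to mTOR, 23 carried such a region, or 47.9%. In this pathway 41 genes already had an untreated end region, and the other 7 were all newly marked. These 7 are 14.6% of the group, against 16.0% newly marked among all genes. Of all genes without an untreated end region, 40.2% were newly marked. Pdpk1, the kinase that activates AKT at the membrane, had 58 fragments and a fold of 3.50 near its finish. It shared this region with Kctd5, 25.8 kb from an untreated region. Pik3cg, the PI3K catalytic subunit downstream of G protein-coupled receptors, had a region of 1040 bp over its start with 50 fragments and a fold of 3.02. Rictor, which defines the mTOR complex that phosphorylates AKT, had 45 fragments and a fold of 2.73 with its summit 24 bp from the start, 24.3 kb from an untreated region. Foxo1, the transcription factor that AKT keeps out of the nucleus, had regions of fold 2.49 and 2.37 at its start, the stronger 0.571 kb from an untreated region. Eif4ebp2, a translation repressor under mTOR, had a fold of 2.76, beside an end marked untreated with a fold of 5.57. Phlpp1 itself, chosen for mention as the antibody's target, had a region of fold 2.56 near its start, 0.642 kb from an untreated region of fold 8.65. Protein phosphatase genes as a family stood near all genes, with 40 of 125, or 32.0%. In that family the start of Ptpn9, a tyrosine phosphatase, had a fold of 3.56 and the finish of Ppm1a, a metal-dependent phosphatase of the same class as PHLPP1, a fold of 3.14.

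Lysosome and autophagy genes carried such regions in 21 of 53 cases, or 39.6%. Newly marked were 6 of 7 unmarked genes, against 40.2% over all genes, but 11.3% of the group, against 16.0%. A region found only untreated stood at 0 of 53, against 8.77% of all genes. Atg14 and Becn1, partners in the lipid kinase complex that starts autophagosomes, had folds of 3.91 and 3.38. At Atg14 an untreated region lay 0.197 kb away and an end was already marked, and at Becn1, with 56 fragments, the nearest untreated region was 13.5 kb away. Hexa, a lysosomal hexosaminidase, had a fold of 3.50. Vps, Snx and Stx membrane traffic genes had 60 of 155, or 38.7%, led by Vps13c, a lipid transfer protein, with 4.17. Genes that switch Ras-superfamily GTPases had 39 of 83, or 47.0%, with Arhgef11 and Arhgap25 at 3.38 and 3.35. In metabolism, a region near the start of Pfkfb4, a regulator of glycolysis, had the highest −log10 q of the whole set, 36.9, from 141 fragments over a raised local background of 35.7, a fold of 3.87. Its summit lay 1595 bp from the start, and an untreated region of fold 6.07 lay 1.07 kb away.

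Several groups of genes active in every cell had a share with a region found only with IL-4 below that of all genes: 18 of 79 ribosomal protein genes, or 22.8%, 10 of 50 proteasome genes, or 20.0%, 27 of 104 oxidative phosphorylation genes, or 26%, and 51 of 165 splicing genes, or 30.9%. Between 76.9% and 84.8% of these 4 groups already had an untreated end region, against 60.1% of all genes. When the regions were limited to a −log10 q of 5 or more, 9.73% of all genes were left, and the same 4 groups stood at 12.7%, 10%, 11.5% and 15.2%; the proteasome share, 5 of 50, is level with that of all genes. Other such groups were below all genes on both counts: 25% and 3.57% of constitutive genes, 29.7% and 5.41% of aminoacyl-tRNA synthetase genes, 25.3% and 6.9% of heat shock and chaperone genes, and 24.6% and 6.15% of DNA repair genes. Rpl26 had a fold of 3.56, Psmc3 of the proteasome cap 3.62 and Fen1, the flap endonuclease of DNA replication, 3.74, and all 3 were newly marked. In all, 14 of 70 groups that were not above all genes for any region were above for strong ones, and 15 were above for any region but not for strong ones. The latter included lung epithelium genes, at 6.25%, granulocyte genes, at 8%, keratin genes, at 6.78%, and the forkhead, Sox, Pax and Gata factors, at 8.80%. In 31 groups both shares were above all genes, among them the IL-4 response at 20.0%, the PI3K and PHLPP pathway at 20.8%, interferon genes at 20.0%, complement and Fc receptor genes at 19.2% and T and B lymphocyte genes at 18.2%.

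Among genes that act on chromatin the shares differed between groups. Histone acetylation and bromodomain genes carried such regions in 18 of 43 cases, or 41.9%. A strong one stood at 12 of the 43, or 27.9%, the highest strong share among the 70 groups. Most of the group, 83.7%, already had an untreated end region, and 4 genes, or 9.3%, were newly marked, against 16.0% of all genes. The median gap was 0.81 kb. Genes with a strong region included the co-repressor Ncor1 with a fold of 3.26, the bromodomain gene Brd1 with 3.14 and the acetyltransferases Kat2a and Kat2b with 2.93 and 2.86. Kat2a was newly marked, and the regions of Ncor1, Brd1 and Kat2b lay 0.697, 0.742 and 0.505 kb from untreated end regions of the same genes. Histone methylation and demethylation genes stood lower, at 19 of 72, or 26.4%, with Setdb1, which methylates histone H3 lysine in silent chromatin, highest at 3.08. Factors of the IRF, STAT, ETS and RUNX families had 17 of 40, or 42.5%, and nuclear receptor genes 16 of 44, or 36.4%, of which 1 was strong. Olfactory and vomeronasal receptor genes, which macrophages hardly use, had 159 of 1453, or 10.9%, and 1.65% had a strong region. Collagen, laminin and fibronectin genes were the group with the highest share of regions found only untreated, 16 of 61 or 26.2%, beside 22 of 61 with regions found only with IL-4.

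**Figure D4:**
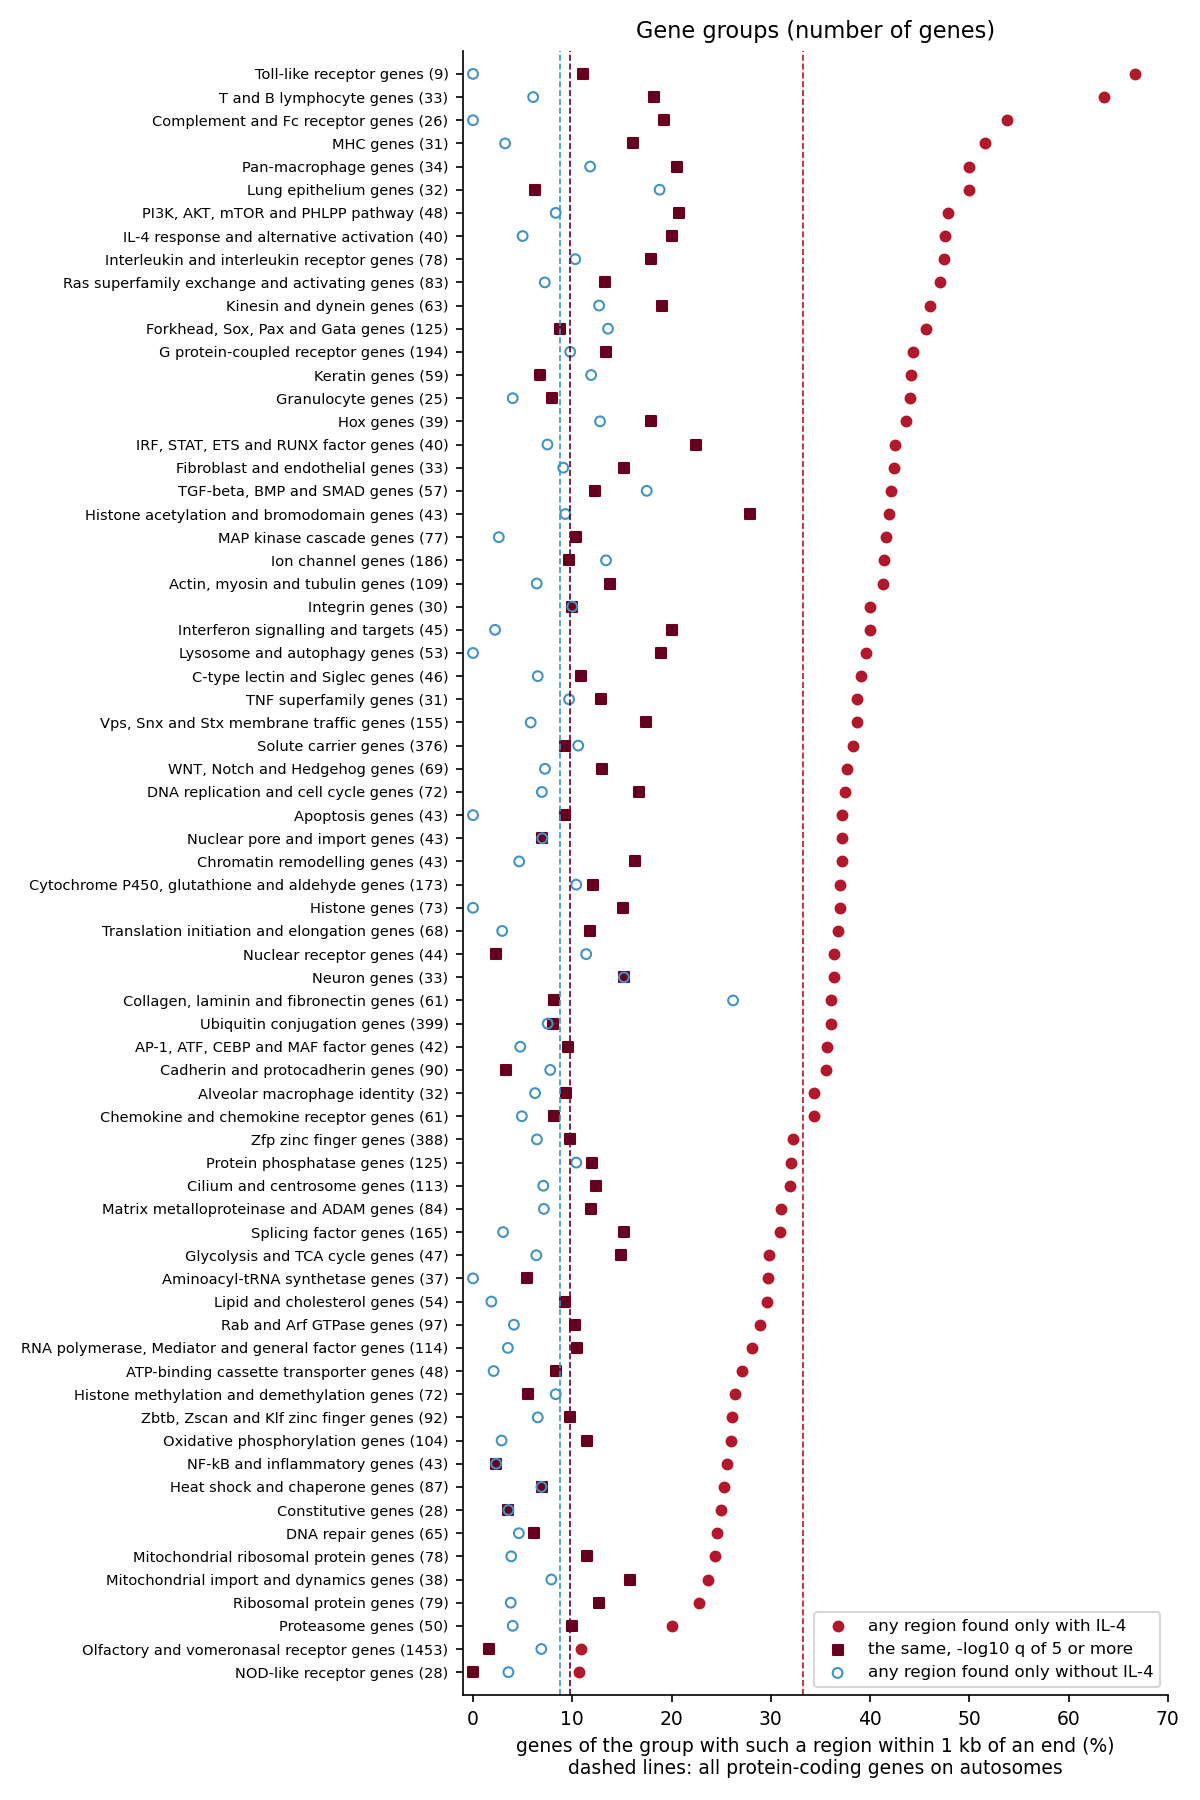
Share of genes (%) in each of 70 groups with a gene-end region found only with IL-4, with such a region of −log10 q 5 or more, and with a region found only untreated; dashed lines give all protein-coding genes, at 33.2%, 9.73% and 8.77%. IL-4 response, interferon, complement and PI3K pathway groups stand right of both IL-4 lines, and ribosomal protein and splicing genes stand left of the line at 33.2% but right of the line at 9.73%.

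Promoter sequence could be examined for 18940 windows of 16438 genes, from 250 bases before to 50 bases after the start. None of the windows was on chromosome 18, so its genes are missing from the promoter and motif results. Windows are counted under a region found only with IL-4 where no untreated region touches the window. Any other window touched by an IL-4 region is counted as under an overlapping region. The 1877 windows under a region found only with IL-4 had a median G+C content of 56.7%, the same as all windows. The 8287 windows under an overlapping IL-4 region had 61.7% and the 8433 windows with no region 49.7%. CpG content differed with fold: an observed-to-expected CpG ratio of 0.6 or more was found in 33.7% of windows under regions with a fold under 2, 49.6% with a fold of 2 to 3 and 69.5% with a fold of 3 or more. It was found in 48.1% of all windows and in 75% of windows under overlapping regions. Among windows without an untreated region, the share that had a region found only with IL-4 was 1.12% below 40% G+C and 29.6% between 55% and 60%. All 10 printed promoters lie under regions with a fold of 3 or more. Those of Tagap, Clec7a, Cxcl10, Fcgr1, H2-Eb1 and Pik3cg had a ratio below 0.6, and those of Rbak, Eif3l, Krr1 and Irf8 a ratio above it. Tagap, with a fold of 4.92, had a ratio of 0.289.

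**Figure D5:**
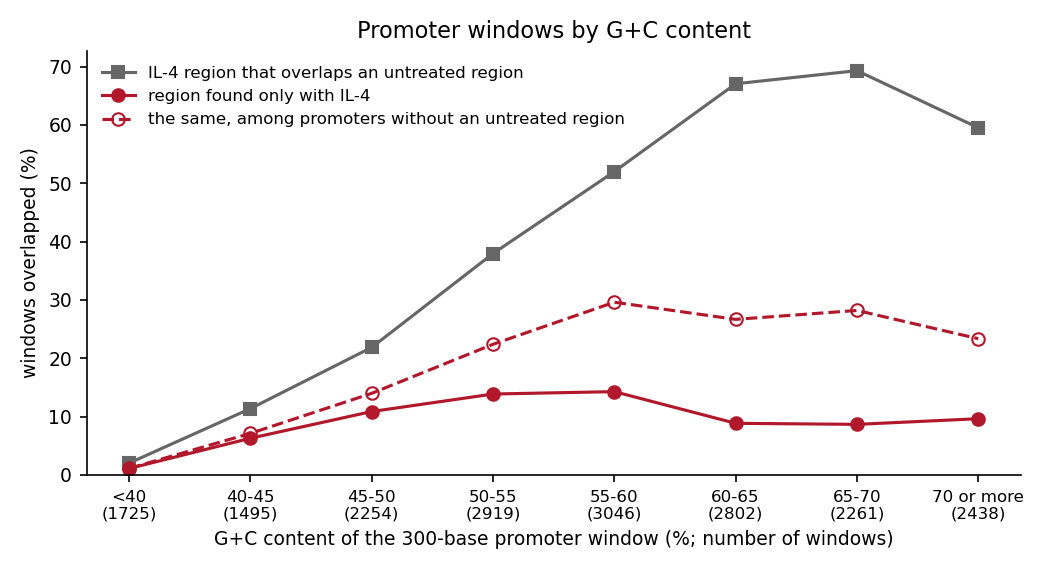
Share of 300-base promoter windows (%) in bins of G+C content (%). The classes are windows under an overlapping IL-4 region, under a region found only with IL-4, and the latter among windows without an untreated region. Overlapping means that the IL-4 region or the window also touches an untreated region. The share under regions found only with IL-4 is highest, at 14.3%, between 55% and 60% G+C, and the share under overlapping regions is highest, at 69.3%, between 65% and 70%.

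Short motifs were counted on both strands in the same windows, as letters and not as sites. The ETS core CCGGAAG, which contains a CG, stood in 11.5% of all windows and in 13.5% under regions found only with IL-4. With a fold of 3 or more the latter share was 19.1%. Under overlapping regions it was 19.6%, and 22.6% under those with a fold of 4 or more. The GC box GGGCGG stood in 46.5% of all windows, 46.1% of windows under these regions and 67.8% under overlapping regions. The E-box CACGTG stood in 7.77% of all windows, in 8.68% under regions found only with IL-4 and in 12.9% under those with a fold of 3 or more. Under overlapping regions the E-box share was 10.4%. The nuclear receptor motif AGGTCA stood in 14.7% of all windows and 18.1% under these regions, in 22.8% under those with a fold below 2 and in 13.7% under those with a fold of 3 or more. It stood in 18.7% of windows with an untreated region alone, 16.5% of windows with no region and 11.9% under overlapping regions. The TATA box TATAAA was found in 13% of all windows, 9.91% under regions found only with IL-4, 5.78% under overlapping regions and 20.6% with no region. The STAT6-type spaced palindrome, searched as its letters on both strands, stood in 6.42% of all windows and 5.49% under regions found only with IL-4. With a fold of 3 or more the latter share was 7.03%. The palindrome stood in 5.32% of windows under overlapping regions and in 7.72% of windows with no region. In the printed promoters it occurs once, in Clec7a, where it begins 131 bases before the start.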

How the data were processed

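Each library came with 1 list of regions in the narrowPeak layout on mm10. The submitters' processing notes name Bowtie 0.12.8, MACS2 2.2.7.1 and DiffBind, without roles; what settings the caller had, and whether a control was used, is not given in the sources used here. In the deposited lists each region has a fold enrichment (the authors' ratio to the local background of that library), a −log10 p, a −log10 q and a score that the authors derived from the p. Depth in reads is unknown. Fragments at summits and backgrounds were recovered from the deposited fold and p, with fold taken as the ratio after 1 is added to both. The fragments came out whole within 0.05 for 100% of autosomal regions. Fold was used to rank and describe within a list and is not scaled between libraries.

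Gaps are counted from edge to edge. Gene ends and promoter windows came from the RefSeq tables on GRCm38.p6; 16457 of 20665 genes had a direction of transcription, and exons, introns and UTRs were not analysed here. The members, the 70 gene groups (lists and symbol patterns) and the 17 motifs were chosen with earlier results of these data known. Named genes are a fixed set where they carry a region, up to 4 of highest fold per group, the 20 of highest fold, the 10 most isolated, the 10 widest, the 10 newly marked genes with most regions, and regions at the thresholds; not all are printed, and other genes were chosen after their values were seen. Overlap and gap code was tested on simulated regions. Alternatives covered the q and fold limits, the length of the list, the overlap, the window and starts alone. Python 3.11.15, numpy 2.4.6, pandas 2.3.3, scipy 1.17.1 and matplotlib 3.10.9 were used.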

Additional observations from a re-analysis of the deposited data

Results flagged for a closer look

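Regions on X and Y lay outside the counts above. There, 126 of 264 gene-end regions of the IL-4 list overlapped no untreated region, with a median fold of 2.43, and 14 of 149 untreated gene-end regions overlapped no IL-4 region. They were listed because they hold signal in data that the comparisons did not use.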

How the results depend on the processing

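The numbers depend on the limits, since most regions are weak. With a −log10 q of 5 or more for IL-4 regions, 1900 regions, 2011 genes and 1119 newly marked genes were left, at a median distance of 4.24 kb. With a fold of 3 or more these were 479, 529, 337 and 5.83 kb. With both lists at a −log10 q of 5 or more, 5142 regions lay a median of 17.7 kb from the shortened untreated list. Counting an untreated region within 5 kb as shared left 3019 regions, 2763 genes and 1959 newly marked genes at 10.6 kb. Counting one within 500 bp as shared moved the distance to 4.27 kb. Requiring an overlap over most of the IL-4 region gave 1.96 kb. That median includes regions with a smaller overlap, entered as touching, so it is not comparable with the other distances. A window of 500 bp gave 4888 regions at 3.83 kb, 2 kb gave 12733 at 3.04 kb, and starts alone gave 3629 regions, 3439 genes and 2.99 kb. The other counts were within 1.5 times.

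Of 70 groups, 11 stood above all genes under the rule and each of the 10 alternatives: IL-4 response, interferon, interleukin, complement and Fc receptor, C-type lectin and Siglec, MHC, PI3K and PHLPP, lysosome and autophagy, histone acetylation, chromatin remodelling, and actin, myosin and tubulin genes. NOD-like receptor, olfactory and DNA repair genes stood below in each. Of the 11, chromatin remodelling genes were near all genes, with 16 of 43, or 37.2%, against 33.2%, and 9.3% were newly marked, against 16.0%. Actin, myosin and tubulin genes had 45 of 109, or 41.3%, and 22.9% were newly marked. Several groups above all genes fell below under stricter limits, in percentage points relative to all genes. With −log10 q of 5 for IL-4 regions, with both lists so limited and with a fold of 3, solute carriers stood at -0.423, -1.31 and -0.698, ion channels at -0.0540, -2.94 and -1.48, and forkhead, Sox, Pax and Gata genes at -0.931, -2.58 and -0.960. G protein-coupled receptors stood at -4.37 with both lists limited and -0.498 with a fold of 3, T and B lymphocyte genes at -0.742 with both lists limited, kinesin and dynein genes at -0.973 with a fold of 3, and Ras switch genes at -2.44 with starts alone. The cause was not tested. No paired analysis was possible because each group held 1 library.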
